A study of Mus musculus with 157 samples.

Results

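Aminoacyl-tRNA synthetases join each amino acid to its tRNA, and mRNAs of 36 of these enzymes were followed along polysome gradients of mouse splenic B cells. The members were chosen by gene name from the 19600 genes of the count table, and all 36 names were present. They comprised 20 cytosolic enzymes and 16 enzymes of the mitochondria. B cells of C57BL/6Babr mice were isolated from the spleen and activated with lipopolysaccharide (LPS, 10 µg/ml), and the 3 groups compared here shared this activation. The LPS group had 48 h of LPS, the LPS+ET group was then given etoposide at 20 µM for 4 h, and the LPS+ET+KU group received KU55933 at 10 µM 1 h ahead of the same etoposide after 47 h of LPS. Etoposide inhibits topoisomerase II and breaks DNA, and KU55933 inhibits ATM, a kinase that signals such breaks. Each treatment had 4 gradients of 13 fractions, and 3′ ends of polyadenylated mRNA were sequenced from each. Fractions 4 to 7 are called monosomes here, 8 to 10 light polysomes and 11 to 16 heavy polysomes. The labels give no mouse or culture for a gradient, so p-values measure the spread between gradients.

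A cell holds separate sets of synthetases for the ribosomes of the cytosol and of the mitochondria, and both sets are encoded in the nucleus and translated on cytosolic ribosomes. Several cytosolic enzymes are held in the multi-synthetase complex, to which 8 of the members belong (Dars, Eprs, Iars, Kars, Lars, Mars, Qars and Rars), while the other 12 cytosolic members act outside it. Phenylalanyl-tRNA synthetase is built from the Farsa and Farsb subunits in the cytosol, whereas the mitochondrial enzyme, Fars2, is a single chain. Eprs charges tRNAs with glutamate and with proline, and Gars and Kars each serve the cytosol and the mitochondria from a single gene. In many mammalian cells, genes of cytosolic synthetases are among the targets of ATF4, the transcription factor of the amino acid response. An mRNA in heavy polysomes carries many ribosomes, and an mRNA in the monosome fractions carries few.

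Gradients are named here by treatment and by the library pool in their column name (LUL15 to LUL18), each pool holding 1 gradient of each treatment. Their totals over fractions 4 to 16 ran from 6404957 to 21449781 counts. The LPS+ET gradient of pool LUL16 had the lowest total and stood apart: 30.4% of its counts came from heavy polysomes, against 60.5% to 68.2% in the other LPS+ET gradients, 52.3% to 62.4% in LPS and 37.6% to 55.5% in LPS+ET+KU. Libraries were made from the same RNA concentration per fraction, so these shares do not measure mRNA mass. They do set how much each fraction weighs in a sum, and results are therefore also given with every fraction weighted equally. All 6 B cell markers were detected, with summed levels of 2148 to 2944 CPM (counts scaled to a common library total) in LPS, 1398 to 2082 in LPS+ET and 1604 to 2526 in LPS+ET+KU. Summed levels were 307 to 447, 334 to 559 and 166 to 335 CPM for 4 plasma cell markers and 49.3 to 108, 71.2 to 163 and 64.6 to 122 CPM for 5 myeloid markers. T cell markers (5 genes) stayed at or below 5.36 CPM and NK cell markers (2 genes) at or below 2.72. Of these genes, Cd22 (B cell) fell by 2.12 and Sdc1 (plasma cell) rose by 3.42 on the log2 scale in LPS+ET against LPS (edgeR adjusted p 0.00171 and 7.9e-06), while the other 3 plasma cell markers tested were not called (Prdm1 -0.28, Xbp1 -0.06 and Irf4 0.11). In LPS+ET+KU against LPS the called markers were Cd22 (-1.82, adjusted p 0.0053), Sdc1 (1.5, 0.00352), Irf4 (-0.98, 0.00317) and the myeloid marker Cd14 (3.83, 2.5e-04), and against LPS+ET Sdc1 alone (-1.93, 0.0057). Their part in the results below was not tested.

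In LPS-activated B cells the mRNAs of the cytosolic enzymes gave far higher CPM on ribosomes than those of their mitochondrial partners. Each mRNA gives 1 tag from its 3′ end, so CPM is not multiplied by mRNA length, but capture and counting can differ between genes. Eef1a1, an elongation factor gene whose mRNA is known as very abundant in most cells, had only 1.44 to 3.23 CPM in LPS, beside 1767 to 2375 CPM for Eef1b2 of the same complex. The order of genes given here is therefore one of counted tags and may differ from that of the mRNAs. Summed over fractions 4 to 16, the cytosolic enzymes held 4995, 5524, 5858 and 5946 CPM in the LPS gradients (values by gradient are given in the order of the pool numbers throughout), and the mitochondrial enzymes 356, 366, 296 and 320 CPM. The median cytosolic mRNA stood 6.23 to 6.8 times above the median mitochondrial mRNA.

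**Figure D1:**
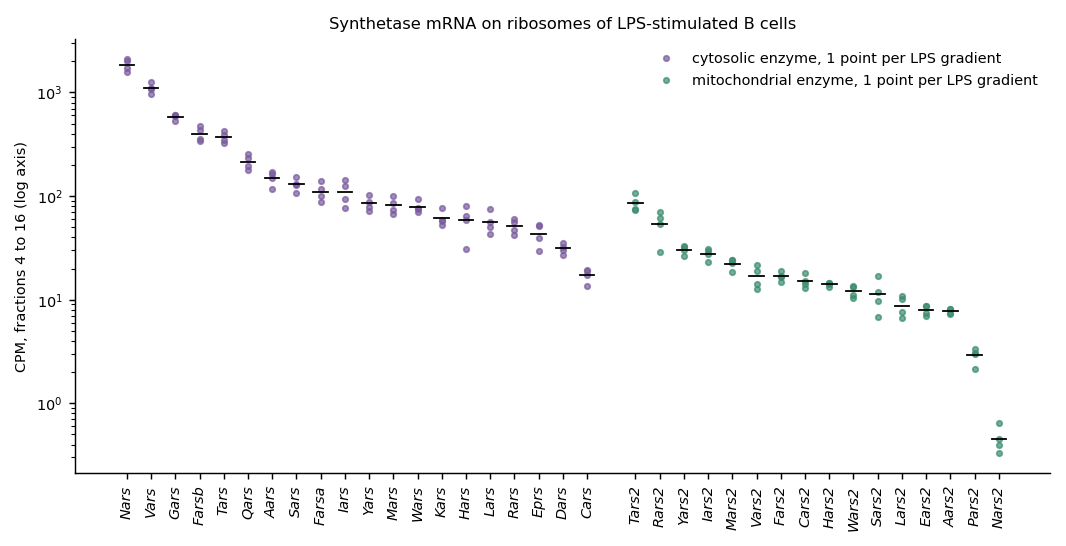
Level of each synthetase mRNA in the 4 LPS gradients, in CPM over fractions 4 to 16 on a log axis, with 1 point per gradient and a bar at the mean. Nars leads the cytosolic enzymes at 1845 CPM and Tars2 the mitochondrial enzymes at 86.1 CPM.

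Nars, which encodes asparaginyl-tRNA synthetase, had the highest CPM of the members, with 1562, 1707, 2011 and 2099 CPM in the 4 LPS gradients (mean 1845 ± 252, SD, n = 4). Vars, the valyl-tRNA synthetase gene, followed with 1101 ± 115 CPM and Gars, for glycine, with 582 ± 37.8 CPM. The lowest LPS gradient of Nars lay above the highest of Vars, and the lowest of Vars above the highest of Gars. At the other end stood Eprs (43.1 ± 10.6 CPM), Dars, the aspartyl enzyme (31.3 ± 3.42 CPM), and Cars, the cysteinyl enzyme (17.3 ± 2.56 CPM), where Eprs overlapped Dars and neither overlapped Cars. Among the mitochondrial enzymes Tars2, for threonine, was highest at 86.1 ± 15.9 CPM. Rars2, for arginine, had 53.7 ± 17.6 CPM and Yars2, for tyrosine, 30.4 ± 3.06 CPM, and these overlapped. The lowest were Aars2 for alanine (7.75 ± 0.458 CPM), Pars2 for proline (2.9 ± 0.525 CPM) and Nars2 for asparagine (0.457 ± 0.136 CPM). Nars2 did not pass the filter on low counts and entered no test, which left 35 members.

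For 15 pairs of a cytosolic and a mitochondrial enzyme with the same amino acid, the cytosolic mRNA had the higher CPM in LPS without overlap in 13. Fars2 was paired with Farsa and again with Farsb, subunits of the same cytosolic enzyme, and is counted with each. The ratio of Vars to Vars2 ran from 49.4 to 87.9 over the 4 gradients and that of Aars to Aars2 from 16.3 to 22.1. The exceptions were cysteine, where Cars over Cars2 gave 0.95 to 1.48, and arginine, where Rars over Rars2 gave 0.866 to 1.45. In these 2 pairs the levels of the 2 mRNAs overlapped between gradients. Of the 36 members, 29 were counted mainly at a site in an untranslated exon, 6 just downstream of the annotated gene and 1, Ears2, in a non-coding exon. For 4 members the site also lay in another gene on the opposite strand or overlapping it (Mars in Ddit3, Cars2 in Naxd, Iars2 in Rab3gap2 and Vars2 with Gm20483), so their values are uncertain where strand was not used. Wars2 was counted at 6 sites, the largest with 46.4% of its counts.

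The first comparison, LPS+ET against LPS, addressed how synthetase mRNA on ribosomes changed after DNA damage. By the times given, both etoposide groups were in culture 4 h longer than LPS. Drug and time therefore cannot be told apart in comparisons with LPS. Farsb, the beta subunit of phenylalanyl-tRNA synthetase, fell below its lowest LPS level in every LPS+ET gradient. It was the single member called in the main fit, which has no term for the pool. Most other cytosolic mRNAs had lower values in LPS+ET without passing the test, whereas fold changes of the mitochondrial mRNAs lay on both sides of 0. Of 12755 genes tested on the counts of fractions 4 to 16 with edgeR, 12.7% were called at an adjusted p under 0.01 (4.81% lower, 7.88% higher). Of the cytosolic members, 1 of 20 was called, lower, and of the mitochondrial members, 0 of 15. The log2 fold change was below 0 in 17 of 20 cytosolic members (median -0.27) and in 8 of 15 mitochondrial members (median -0.02), and the median over all genes was 0.03. In a bulk sample, less mRNA per cell cannot be told apart from fewer cells that express it.

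Farsb (ENSMUSG00000026245, chromosome 1, 78417957 to 78488858, minus strand, GRCm38) had 343, 434, 357 and 473 CPM in the LPS gradients, 171, 216, 166 and 217 CPM in LPS+ET and 142, 107, 165 and 191 CPM in LPS+ET+KU. Every gradient with etoposide lay below every LPS gradient, and the etoposide groups overlapped each other. The log2 fold change in LPS+ET against LPS was -1.06 ± 0.20 (SE, edgeR adjusted p 0.00198). Its counts came from a single site in an untranslated exon at position 78425084, within 1 base of an annotated transcript end and 7109 bases before that of the principal transcript. Farsa (chromosome 8, 84856988 to 84869256, plus strand), the alpha subunit of the same enzyme, had 116, 139, 88.1 and 99.6 CPM in LPS and 96.9, 103, 78.3 and 92 CPM in LPS+ET. It was lower in LPS+ET in all 4 pools, but the groups overlapped and the difference of -0.26 ± 0.17 was not called (adjusted p 0.329).

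The mitochondrial phenylalanyl enzyme gene, Fars2 (chromosome 13, 36117410 to 36537591, plus strand), had 17, 18.9, 16.4 and 14.8 CPM in LPS, 8.82, 10.3, 7.26 and 6.15 CPM in LPS+ET and 7.04, 15.3, 6.82 and 8.92 CPM in LPS+ET+KU. The LPS and LPS+ET gradients did not overlap, yet the difference of -1.05 ± 0.26 just missed the threshold (adjusted p 0.0107). Tars, the threonyl enzyme gene (chromosome 15, 11383662 to 11399657, minus strand), had 325, 349, 422 and 389 CPM in LPS and 225, 306, 202 and 208 CPM in LPS+ET. Its groups did not overlap either (log2 -0.66 ± 0.17, adjusted p 0.0129). Lars, the leucyl enzyme gene, had 50.8, 42.7, 75 and 55.7 CPM in LPS and 34.8, 44.1, 27.1 and 24 CPM in LPS+ET. The LPS+ET gradient of pool LUL16 reached into its LPS range (log2 -0.79 ± 0.24, adjusted p 0.0307). CPM values of LPS and LPS+ET did not overlap for 2 of 20 cytosolic members (Farsb and Tars) and 3 of 15 mitochondrial members (Fars2 lower, Aars2 and Hars2 higher), while 27.5% of all genes tested did not overlap.

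With the library pool as a block, 6 members were called lower in LPS+ET: Farsb, Tars (adjusted p 0.00317), Lars (0.00654), Cars (0.00774), Fars2 (4.3e-04) and Rars2 (6.9e-04). In that fit 26.7% of all genes were called, 12.8% lower. Farsb was called without each of the 12 gradients in turn. When the LPS+ET gradient of LUL16 that stood apart was left out, 4 members were called (Cars, Fars2, Farsb and Tars). Of 13004 genes in that fit, 1099 were called higher and 662 lower, against 1005 and 613 of 12755 in the main fit. Without the LPS+ET+KU gradient of LUL16 or of LUL17, which add to the estimate of the spread, 2 were called (Farsb and Fars2). Over all genes 1251 were then called higher and 837 lower of 12994 (LUL16), and 999 and 586 of 12951 (LUL17). With every fraction weighted equally, limma called 2 members, Farsb and Tars (8.73% of all genes).

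**Figure D2:**
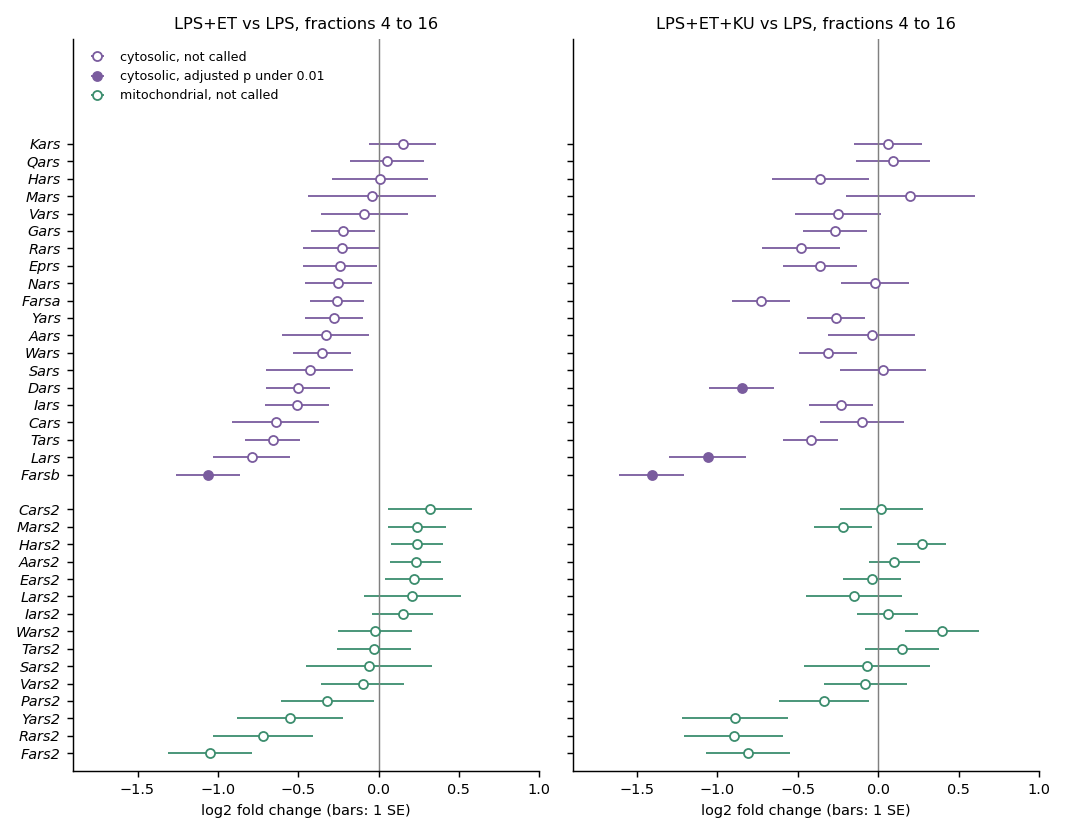
Log2 fold change of each tested synthetase mRNA over fractions 4 to 16 with 1 SE, in LPS+ET against LPS (left) and LPS+ET+KU against LPS (right), cytosolic enzymes above and mitochondrial enzymes below, in the same order in both panels. Filled points passed an adjusted p under 0.01: Farsb on the left (-1.06), and Farsb (-1.41), Lars (-1.06) and Dars (-0.85) on the right; the panels share the LPS gradients.

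The fraction classes were then compared one by one between LPS+ET and LPS. In heavy polysomes Farsb had 444, 604, 464 and 622 CPM in LPS and 206, 246, 186 and 244 CPM in LPS+ET, groups that did not overlap. It fell by 1.28 on the log2 scale (adjusted p 0.00236) and was the single member called there, where 9.69% of all genes were called. The call was lost without the LPS gradient of LUL18 or the LPS+ET gradient of LUL17 (0 members). Without the LPS+ET gradient of LUL16 there were 3 calls (Cars, Farsb and Tars). Over all genes that fit called 844 higher and 520 lower of 11594, against 698 and 403 of 11368 in the main fit. Without the LPS+ET+KU gradient of LUL15 or of LUL16 there were 2 (Fars2 and Farsb). All-gene calls were then 674 higher and 401 lower of 11560 (LUL15), and 835 and 659 of 11577 (LUL16). In monosomes the single call was Mars2, the mitochondrial methionyl enzyme gene, which had 23.7, 20.9, 26 and 34.6 CPM in LPS and 53.5, 40.9, 55 and 52.7 CPM in LPS+ET. It rose by 0.94 without overlap of the groups (adjusted p 0.00726), and 9.52% of all genes were called in monosomes. This call was lost without any 1 of 7 gradients (LPS of LUL15, LUL16 or LUL17, LPS+ET of LUL15, LUL17 or LUL18, LPS+ET+KU of LUL15) and with no filter on low counts. Mars2 was counted at 3 sites. No member was called in light polysomes with edgeR (10.6% of all genes), where DESeq2 called 2 (15.2% of all genes), Eprs higher and Fars2 lower. So did edgeR without the LPS+ET+KU gradient of LUL16, where 789 of 10127 genes were called higher and 535 lower.

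Blocking by pool moved these counts to 3 in heavy polysomes (Farsb, Fars2 and Rars2, all lower), 6 in light polysomes and 6 in monosomes. In monosomes the blocked calls were Eprs (0.87), Gars (0.53), Mars2 (0.93), Tars2 (0.73) and Vars (0.64) higher and Yars (-0.84) lower in LPS+ET. In light polysomes they were Eprs (0.92), Cars2 (0.75) and Tars2 (0.62) higher and Fars2 (-1.18), Iars (-0.68) and Rars2 (-0.80) lower. Shares of all genes called with the block were 20.6% in heavy polysomes, 25% in light polysomes and 24.6% in monosomes. The summed heavy polysome level of the cytosolic enzymes was 6841 to 8407 CPM in LPS, and in LPS+ET it was 5691, 4302 and 5177 CPM in pools LUL15, LUL17 and LUL18 and 12455 CPM in LUL16. Nars alone had 4832 CPM in heavy polysomes of that LUL16 gradient, against 1543 to 2021 CPM in the other 3. The mitochondrial enzymes together had 362 to 465 CPM in heavy polysomes of LPS and 289 to 490 CPM of LPS+ET.

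The second comparison, LPS+ET+KU against LPS+ET, addressed whether ATM inhibition altered the response to etoposide. No synthetase mRNA differed by the test over fractions 4 to 16, where 0.455% of all genes were called. At an unadjusted p under 0.05 edgeR gave 1 cytosolic member (Farsa) and 1 mitochondrial member (Mars2), beside 15.9% of all genes, and DESeq2 called 0 members and 3.24% of all genes. Fold changes of the cytosolic members were split evenly, 10 above and 10 below 0 (median -0.01, range -0.47 to 0.55), and 5 of 15 mitochondrial members were above 0 (median -0.09, range -0.46 to 0.42), beside a median of 0.04 over all genes. CPM ranges of the 2 groups overlapped for all 35 members, while 8.57% of all genes did not overlap.

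The 4 smallest p-values belonged to Farsa, Mars2, Cars and Wars2. Farsa had 96.9, 103, 78.3 and 92 CPM in LPS+ET and 79.3, 61.9, 63.3 and 63 CPM in LPS+ET+KU. It was lower with the inhibitor in all 4 pools, with a slight overlap of the groups (log2 -0.47 ± 0.17, edgeR adjusted p 0.198). Mars2 had 26.9, 26.8, 28.8 and 22.9 CPM in LPS+ET and 20.9, 15.6, 23.9 and 16.2 CPM with the inhibitor (-0.46 ± 0.18, adjusted p 0.205). Cars had 9.13, 18.8, 8.25 and 8.78 CPM in LPS+ET and 16.2, 21.2, 14.1 and 13.4 CPM with the inhibitor (0.55 ± 0.27, adjusted p 0.342), the high LPS+ET value being that of pool LUL16. Wars2, the mitochondrial tryptophanyl enzyme gene, differed by 0.42 ± 0.23 (adjusted p 0.398) and was higher with the inhibitor in all 4 pools. By class, 0 members were called in monosomes, light or heavy polysomes, where 0.213%, 0.292% and 0.572% of all genes were. The pool block called 2 in light polysomes (5.35% of all genes), Iars higher (0.72) and Mars2 lower (-1.27), and DESeq2 called Mars2 alone there (2.16% of all genes). Mars2 was lower with the inhibitor without overlap in each class: 40.9 to 55 CPM in LPS+ET against 24.5 to 40.1 CPM in monosomes, 20.1 to 30.1 against 6.17 to 13.1 CPM in light polysomes and 18.7 to 26.5 against 11.7 to 17.7 CPM in heavy polysomes. Iars and Wars2 were higher without overlap in light polysomes, and no other tested member was without overlap in any class. Of all genes 7.33% did not overlap in monosomes, 7.51% in light polysomes and 8.67% in heavy polysomes.

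**Figure D3:**
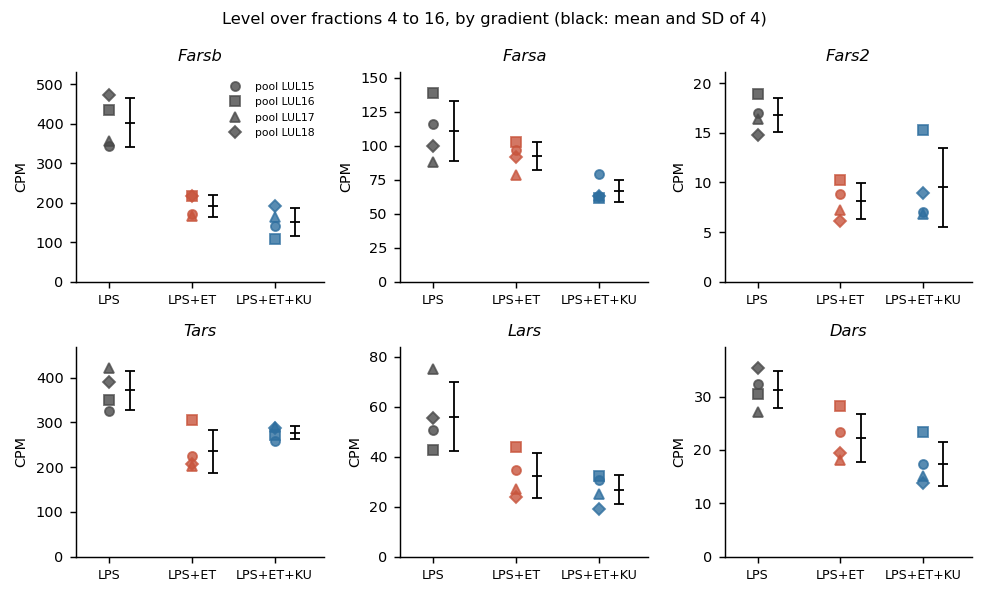
CPM over fractions 4 to 16 in each gradient for 6 synthetase mRNAs, with pools as symbols and the mean and SD of 4 gradients in black. Farsb lies at 343 to 473 CPM in LPS and at 107 to 217 CPM in all gradients with etoposide.

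LPS+ET+KU was also set against LPS, a contrast that shares the LPS gradients with LPS+ET against LPS and whose calls are therefore no independent repeat of it. Here 10.7% of all genes were called (4.42% lower, 6.25% higher; 58.6% of calls were higher, and 74.5% with equally weighted fractions), and 3 of 20 cytosolic and 0 of 15 mitochondrial members, all 3 lower. They were Farsb (-1.41 ± 0.20, edgeR adjusted p 4.3e-04), Lars (-1.06 ± 0.24, 0.00743) and Dars (-0.85 ± 0.20, 0.00906). Lars had 30.7, 32.5, 25.1 and 19.3 CPM in LPS+ET+KU, all below its lowest LPS value of 42.7 CPM. Dars (chromosome 1, 128363707 to 128417415, minus strand) had 32.4, 30.4, 27.2 and 35.3 CPM in LPS, 23.3, 28.2, 18.1 and 19.4 CPM in LPS+ET and 17.3, 23.3, 15.2 and 13.8 CPM in LPS+ET+KU. Its LPS+ET+KU gradients lay below all LPS gradients and its LPS+ET gradients reached into the LPS range.

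Farsa, with no overlap between LPS+ET+KU and LPS, missed the threshold by little (-0.73 ± 0.18, adjusted p 0.01002). Over the cytosolic members 16 of 20 were below 0 (median -0.27), and over the mitochondrial members 9 of 15 (median -0.07), beside a median of 0.09 for all genes. CPM values did not overlap for 5 cytosolic members (Dars, Farsa, Farsb, Lars and Tars) and 1 mitochondrial member (Yars2), against 26.4% of all genes. The pool block called 8 members, all lower (28.1% of all genes, 13.3% lower), adding Farsa, Rars, Fars2, Rars2 and Yars2 to the 3. Farsb was the only call left with every fraction weighted equally in limma (7.13% of all genes), with only the 8 gradients compared, and without each of 6 gradients in turn (LPS of LUL15 or LUL18, LPS+ET of LUL15, LPS+ET+KU of LUL15, LUL17 or LUL18). Lars kept its call without 5 of the 12 gradients and Dars without 2.

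Along the gradient, mRNAs of cytosolic enzymes lay towards heavy polysomes, and mRNAs of mitochondrial enzymes lay nearer to the median of all genes. In LPS, 16 of 20 cytosolic members were higher in heavy polysomes than in monosomes of the same gradients and 1 was lower, with a median log2 ratio of 1.33. Of 15 mitochondrial members 2 were higher and 3 lower, with a median of 0.34. Of 11463 genes tested with edgeR and a term for the gradient, 46.1% were called, 25.1% higher and 21% lower, with a median of 0.08. For the pairs by amino acid, Fars2 was again set with both Farsa and Farsb. In each of the 14 pairs with a value for both enzymes, the cytosolic mRNA had the higher ratio, though single differences were not tested. With every fraction weighted equally it did so in 12 of the 14, and the arginine pair (Rars 1.78, Rars2 1.79) and the serine pair (Sars 1.07, Sars2 1.12) had nearly equal ratios.

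Lars had the largest ratio (2.04 ± 0.21, edgeR adjusted p 2.5e-09), followed by Wars, the tryptophanyl enzyme gene (1.92 ± 0.18, 6.5e-10), and Eprs (1.76 ± 0.20, 1.2e-08). Gars stood beside Eprs at 1.76. The lowest cytosolic ratios were those of Farsa (0.29, adjusted p 0.152), Kars, for lysine (0.21, 0.300), and Qars, for glutamine (-1.05 ± 0.16, 3.8e-06). Among mitochondrial enzymes Iars2, for isoleucine (1.13 ± 0.20, 2.7e-05), and Rars2 (1.12 ± 0.18, 6.8e-06) were higher in heavy polysomes. Mars2 (-0.91 ± 0.18, 9e-05), Cars2 (-0.88 ± 0.27, 0.00609) and Wars2 (-0.86 ± 0.22, 0.0012) were lower.

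The zero of this ratio depends on the weight given to each fraction. With every fraction scaled to CPM, the median over all genes moved from 0.08 to 0.63, the share of calls that were higher from 54.4% to 81.5%, and the ratios of Qars (-0.05, limma adjusted p 0.832), Mars2 (0.02) and Cars2 (0.11) came to lie near 0. With equal weights 19 of 20 cytosolic and 11 of 15 mitochondrial members lay above the median of all genes. After etoposide the counts were 15 higher and 1 lower among cytosolic members (of all genes 46.1% were called, 26.8% higher and 19.2% lower) and 3 and 3 among mitochondrial members. In LPS+ET+KU they were 13 and 2 (of all genes 50.7%, 28.7% higher and 22% lower) and 2 and 4. Qars (-1.62) and Kars (-0.70) were the 2 lower cytosolic members in LPS+ET+KU.

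Position along the gradient is also tied to the length of the coding region, since a longer one has room for more ribosomes. Among genes with 500 to 750 codons the median log2 ratio of heavy polysomes to monosomes in LPS was 0.20, and all 11 cytosolic members in this range lay above it (median 1.34), as did 4 of 7 mitochondrial members (median 0.34). Wars had a ratio of 1.92 with 481 codons. Among genes of 750 to 1000 codons (median 0.33), Qars with 775 codons was the single cytosolic member below the median. The 4 mitochondrial members with 250 to 500 codons (Fars2, Pars2, Wars2 and Yars2) all lay below the median of 0.15 for that range. Across the 35 members the ratio correlated with log2 codons at r = 0.42 (Spearman rho 0.39), against r = 0.26 over 10493 genes. Within the 20 cytosolic members r was 0.21 (rho 0.07) and within the 15 mitochondrial members 0.56 (rho 0.58). These are a description across genes measured in the same libraries.

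In the profiles, Lars and Eprs had their largest share of LPS mRNA in the heaviest fraction, 16, with 36.1% ± 10.8 and 35.4% ± 8.29 (SD, n = 4) of the fraction-scaled CPM. Vars had its largest share in fraction 15 (25.9% ± 1.06), and Nars (21.4% ± 4.81) and Wars (19.4% ± 7.35) in fraction 14. Qars instead had its largest share at the upper end of the monosome fractions, in fraction 7, with 13.7% ± 1.91 in LPS. The share was 17.9% ± 1 with etoposide and 18% ± 2.31 with etoposide and the inhibitor, and these differences were not tested. Mars2 also had its LPS maximum in fraction 7 (11.2% ± 1.72).

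**Figure D4:**
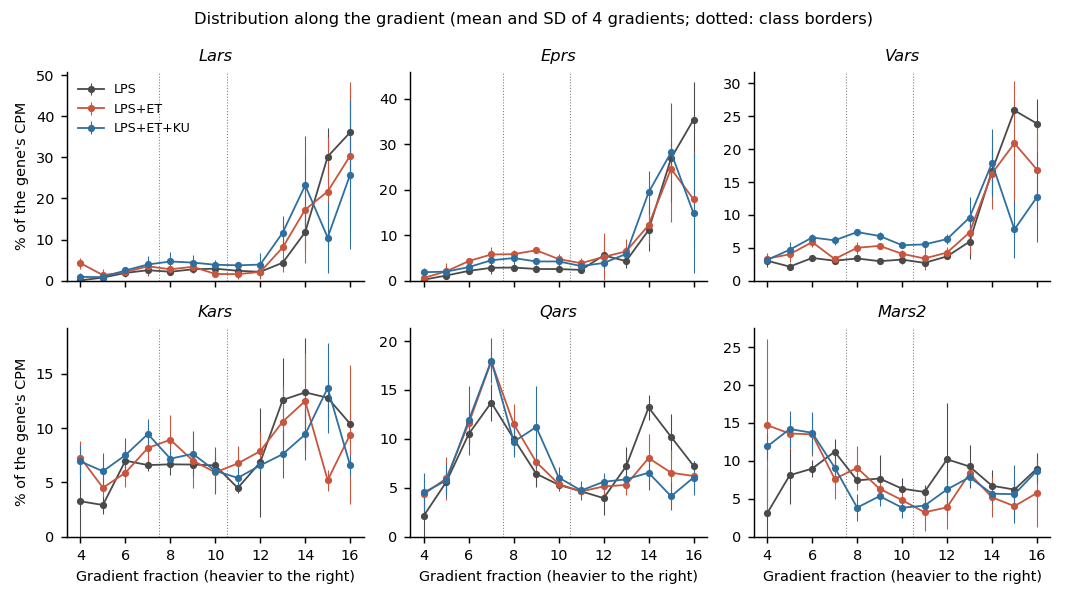
Percent of each mRNA's CPM in fractions 4 to 16, with every fraction scaled to the same total, as mean and SD of 4 gradients per treatment; dotted lines part monosomes, light and heavy polysomes. Lars and Eprs peak in fraction 16 in LPS (36.1% and 35.4%), Vars in fraction 15, and Qars in fraction 7 in all 3 treatments.

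The share of each mRNA in heavy polysomes was then compared between treatments, with every fraction scaled to CPM. The cytosolic median went from 75.2% in LPS to 72.2% with etoposide and 71.9% with etoposide and the inhibitor. The mitochondrial medians were 60.6%, 51.8% and 58.4% in the same order, and those of all genes 51.5%, 51.3% and 51.8%. This scaling gives every fraction the same total in each gradient, so the shares place an mRNA relative to other genes. They cannot show a shift common to all mRNAs. The paper reports that etoposide lowered polysome assembly globally. After etoposide the share was lower without overlap of the groups in 9 of 20 cytosolic members (Dars, Eprs, Farsb, Gars, Kars, Lars, Qars, Sars and Vars) and in 3 of 15 mitochondrial members (Ears2, Iars2 and Tars2), and higher without overlap in 0. Of all genes 6.44% were lower and 3.88% higher without overlap.

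Eprs had heavy polysome shares of 85.4%, 84.4%, 85.5% and 87.6% in LPS and of 72.7%, 62.8%, 73.2% and 71.7% in LPS+ET. The groups did not overlap, and the LPS+ET+KU gradients (77.3%, 74.3%, 76.4% and 73.3%) fell between them. Vars had 79.4%, 81.2%, 77.7% and 77.1% in LPS, 73.6%, 63.7%, 68.8% and 70.4% in LPS+ET and 61.6%, 59.7%, 62.9% and 55.3% in LPS+ET+KU. No gradient of Vars overlapped between any of the 3 treatments. Sars, the seryl enzyme gene, went from 64.2% ± 2.62 to 51.3% ± 2.44 (SD, n = 4), Gars from 76.8% ± 2.18 to 67.6% ± 4.40 and Qars from 46.4% ± 2.70 to 35.8% ± 4.54. Among the mitochondrial enzymes Tars2 went from 59.8% ± 2.04 to 44.8% ± 7.45 and Ears2, for glutamate, from 69.2% ± 3.23 to 55.8% ± 2.68. Rars (74.2% ± 3.59 and 79.9% ± 4.90) and Hars, for histidine (68.2% ± 3.50 and 72.2% ± 7.16), had higher means after etoposide, with overlap.

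Against LPS, LPS+ET+KU had lower shares without overlap in 10 cytosolic members (Dars, Eprs, Farsb, Gars, Lars, Nars, Qars, Sars, Tars and Vars) and 2 mitochondrial members (Ears2 and Fars2), with 0 higher, beside 7.08% of all genes lower and 5.31% higher. Both contrasts share the LPS gradients. Between LPS+ET+KU and LPS+ET, Nars and Vars were lower with the inhibitor and Aars, Eprs and Sars2 higher without overlap, where 1.45% of all genes were lower and 2.76% higher. When the counts were used as deposited, with deep fractions weighing more, 2 members in place of 12 were lower after etoposide, and 1.76% of all genes. Leaving out the LPS+ET gradient of LUL16 also gave 12 members lower, 9 of them cytosolic, and 2 members higher without overlap. Of all genes 7.99% were lower and 7.07% higher in that setting.

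**Figure D5:**
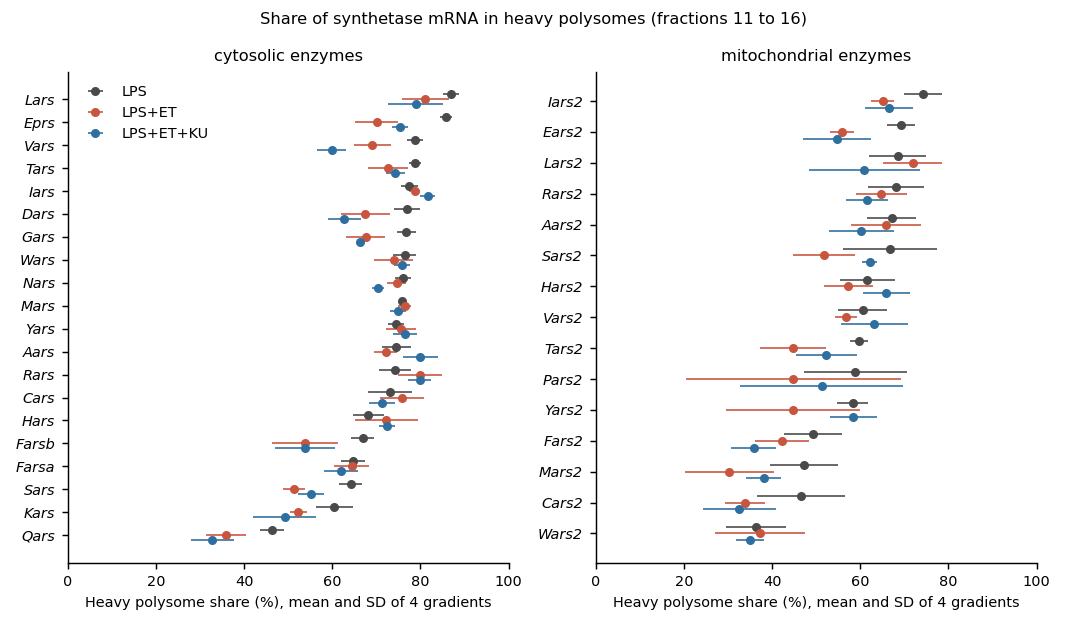
Share of each synthetase mRNA in heavy polysomes in percent of its fraction-scaled CPM, mean and SD of 4 gradients, in LPS, LPS+ET and LPS+ET+KU for cytosolic (left) and mitochondrial enzymes (right). Eprs falls from 85.7% to 70.1% after etoposide and Vars from 78.8% in LPS to 59.9% with the inhibitor, while Qars is the lowest cytosolic member in each treatment.

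The test of the change in the ratio of heavy polysomes to monosomes called 0 members in LPS+ET against LPS, where 2.51% of all genes were called with edgeR. At an unadjusted p under 0.05 it gave 8 cytosolic and 3 mitochondrial members, beside 22.2% of all genes, and DESeq2 called 1, Eprs, and 4.21% of all genes. Eprs had the smallest p (log2 change -1.11 ± 0.28, edgeR adjusted p 0.0143), followed by Vars (-0.77 ± 0.23, 0.0364) and Yars (0.97 ± 0.29, 0.0396). Eprs had 11.9, 11.3, 13 and 10.5 CPM in monosomes of LPS and 15.8, 29.7, 17.2 and 21.4 CPM in LPS+ET, without overlap, while its heavy polysome levels of 58.6, 44.3, 81.4 and 73.3 CPM and 42.1, 75.4, 34.5 and 35.6 CPM overlapped. When the LPS+ET gradient of LUL16 was left out, 4 members were called (Eprs, Gars, Tars2 and Vars). The share of all genes called without that gradient is not given here, so this rise cannot be taken as particular to synthetases. Between LPS+ET+KU and LPS+ET 0 were called (0.0262% of all genes), with 5 cytosolic and 2 mitochondrial members at an unadjusted p under 0.05 (10.4% of all genes) and 0 by DESeq2 (0.375%).

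Partners of the synthetases were described from fixed lists. Of the 3 scaffold genes of the multi-synthetase complex (Aimp1, Aimp2 and Eef1e1) 0 were called in LPS+ET against LPS, and of 8 genes that carry or handle cytosolic tRNA, such as Eef1b2 and the tRNA exporter Xpot, 0 were called as well, in the fit that called 12.7% of all genes. Of 14 tested partners in mitochondrial translation 1 fell, Mtfmt, which formylates the methionyl-tRNA that starts mitochondrial proteins. It had 7.27, 8.69, 9.96 and 5.55 CPM in LPS and 3.59, 3.44, 4.51 and 2.63 CPM in LPS+ET, without overlap (log2 -1.14 ± 0.24, edgeR adjusted p 0.00355). The pool block called 3 of these 14 lower (Mtfmt, Gatc and Mtrf1l), beside 12.8% of all genes.

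A list of 23 genes of the ATF4 response, 21 of them tested, had 3 lower and 1 higher call in LPS+ET against LPS (4.81% and 7.88% of all genes) and a median of -0.39. With the pool block, 6 were lower, with Trib3, Slc38a2 and Slc7a1 added, and 1 higher, where 26.7% of all genes were called. Atf4 itself had 1157, 1287, 1565 and 1364 CPM in LPS, 436, 897, 554 and 587 CPM in LPS+ET and 1180, 2199, 1536 and 1299 CPM in LPS+ET+KU. LPS+ET lay below both other groups without overlap (LPS+ET against LPS -1.12 ± 0.25, edgeR adjusted p 0.00576). Chac1, a glutathione-degrading enzyme gene, fell by 2.60 (2.2e-04) and Psph, of serine synthesis, fell by 0.98 (5.3e-04). Sesn2, a stress-response gene that p53 also regulates, rose by 2.86 (2.5e-05). With the inhibitor 19 of 21 lay above 0 against LPS+ET (median 0.50), and 0 were called with edgeR (10 at an unadjusted p under 0.05, 6 by DESeq2, beside the 15.9% and 3.24% given above, and 8 with the pool block, which called 6.36% of all genes). Among them were Atf4 (1.33 ± 0.25, adjusted p 0.018) and Chac1 (2.06 ± 0.36, 0.0126). Sesn2, which was among the 10 and the 8, was instead lower with the inhibitor (-0.76, edgeR adjusted p 0.199).

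Promoters were searched for the composite C/EBP-ATF element through which ATF4 acts, because synthetase and ATF4-response genes are set side by side above. The letters TGATGNAA were looked for on both strands from 250 bases before to 50 bases after each RefSeq gene start (GRCm38.p6). They stood in 5 of 13 matched cytosolic synthetase genes (38.5%), 0 of 14 matched mitochondrial genes and 8 of 20 matched genes of the ATF4 list (40%). Of all 27025 genes with a promoter 4.51% held them. Without a matched promoter were Cars, Hars, Lars, Nars, Rars, Vars, Wars, Hars2 and Pars2. A window from each of the 5 cytosolic genes and, as an ATF4-response gene for comparison, of Chac1 follows on the strand of the gene, with the element in capitals (TTGCATCA and TTTCATCA are the letters read from the opposite strand).
Aars, chr8:111033840-111033869, plus strand: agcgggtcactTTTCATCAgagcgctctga
Gars, chr6:55037960-55037989, plus strand: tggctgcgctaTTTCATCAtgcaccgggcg
Iars, chr13:49682126-49682155, plus strand: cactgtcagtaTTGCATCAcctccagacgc
Tars, chr15:11399655-11399684, minus strand: caggagtcccgTTGCATCAgctggttagct
Yars, chr4:129189895-129189924, plus strand: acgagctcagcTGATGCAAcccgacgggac
Chac1, chr2:119351038-119351067, plus strand: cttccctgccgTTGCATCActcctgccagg

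In the windows shown, the element began 30 bases before the start in Gars, 15 before in Tars, 7 after in Iars, 3 after in Yars and 9 after in Aars. A match is a run of letters and not a measured binding site. In LPS+ET against LPS these 5 genes had log2 fold changes of -0.33 (Aars), -0.22 (Gars), -0.51 (Iars), -0.66 (Tars) and -0.28 (Yars), and none was called with edgeR without the pool block. With the block, and with equal weights, Tars alone was called. CPM of LPS and LPS+ET overlapped in each of them except Tars. Most cytosolic members lay below 0 in this comparison. The matched cytosolic genes without the letters were Dars, Eprs, Farsa, Farsb, Kars, Mars, Qars and Sars. Of these, Kars and Qars had a higher mean CPM in LPS+ET (68.2 and 222) than in LPS (61.6 and 214). The rest had a lower mean. A part of the element in these changes was not tested.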

How the data were processed

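Each gradient was sequenced by 3′ end libraries of fractions 4 to 16 (156 libraries). The authors removed PCR duplicates by 5 random bases, trimmed A tracts, aligned tags to GRCm38 and summed them per Ensembl gene, and the deposited values are whole-number counts without normalization. The submitters' notes name TopHat2 2.0.12, HTSeq and DESeq2 1.6.3. Of 157 columns, 79 were matched to single samples and 78 to treatment and fraction only. The fraction 17 library (777 counts) was not used. Fractions were summed per gradient and class and tested on all genes with edgeR 4.0.16 in R 4.3.3 (TMM, default filter, quasi-likelihood F-test, two-sided, Benjamini-Hochberg). Treatment was the only term, and heavy polysomes were set against monosomes with a term per gradient. Genes were called at an adjusted p under 0.01. CPM values are TMM-scaled. For equal weights, each fraction was scaled to CPM and tested with limma 3.58.1 after adding 0.5 CPM. DESeq2 1.42.0 was an alternative. Tests were tried on simulated data.

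Deviations from treatment means correlated at 0.305 to 0.799 between gradients of the same pool (12 of 12 pairs over 0.1) and at -0.628 to 0.284 between pools. Pools were therefore taken to pair gradients in the fit with the pool block, from column names only. The main comparisons of treatments left this pairing out. Members and lists were chosen with earlier results of these data known. Named were the members with the 4 smallest p-values per treatment comparison, the 3 highest and 3 lowest levels and heavy to monosome ratios in each class of enzyme, and Gars, Kars and Wars; others are named where counts turn on them, after their values were seen. Hba-a1, Hbb-bs, Cd4, Adgre1, Ncr1, Klrb1c and Jchain were not analysed here. A marker gene and a promoter window are not reported here.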

Additional observations from a re-analysis of the deposited data

Results flagged for a closer look

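For 8 of 174 groups of 4 gradients, 1 gradient lay far from the other 3 (Dixon's test at 95%, which chance passes in about 1 in 20 groups). The LPS+ET gradient of pool LUL16 was the distant one in 5 of them: it had the highest Cars level (18.8 CPM), the highest summed cytosolic level in monosomes (3451 CPM) and in heavy polysomes (12455 CPM), and the lowest heavy polysome share of Cars (68.3%) and of Eprs (62.8%). The same gradient had 30.4% of its counts in heavy polysomes, the lowest of the 12. In LPS+ET+KU, Farsa was highest in pool LUL15 (79.3 CPM), Kars in LUL17 (89.1 CPM) and the summed mitochondrial level in light polysomes in LUL15 (301 CPM).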

How the results depend on the processing

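Called members over fractions 4 to 16 in LPS+ET against LPS numbered 1, and 4 at an adjusted p under 0.05, 3 with DESeq2, 2 with equally weighted fractions, 2 with only the 8 gradients compared, 6 with the pool block, and 1 to 4 without single gradients. Calls over all genes moved as well. They were 1005 higher and 613 lower of 12755 in the main fit and 1331 and 1013 of 12755 with DESeq2. With only the 8 gradients they were 1034 and 618 of 11947. Equal weights called 8.73% of all genes and the block 26.7%. Changes in the member counts below are therefore not read as particular to synthetases. In LPS+ET+KU against LPS the 3 calls became 5 at an adjusted p under 0.05, 1 with equal weights, 1 with only the 8 gradients and 8 with the block, and 1 to 4 without single gradients. In LPS+ET against LPS by class, DESeq2 gave 2 in heavy polysomes, 2 in light polysomes and 2 in monosomes, the block 3, 6 and 6, no filter 2 in heavy polysomes and 0 in monosomes, and leaving out single gradients 0 to 3, 0 to 2 and 0 to 2. Over all genes DESeq2 called 1025 higher and 709 lower of 11368 in heavy polysomes, against 698 and 403 in the main fit. In monosomes it called 724 and 471 of 8932. LPS+ET+KU against LPS+ET stayed at 0 calls except in light polysomes (1 with DESeq2, 2 with the block), and at 0 to 0 without single gradients. The change of the ratio in LPS+ET against LPS had 1 call with DESeq2 and 0 to 4 without single gradients. Calls of heavy polysomes against monosomes ranged over 19 to 22 in LPS, 19 to 23 in LPS+ET and 19 to 21 in LPS+ET+KU without single gradients. With equal weights the median LPS ratio of all genes moved from 0.08 to 0.63, and the sign of the ratio changed in Cars2 (0.11) and Mars2 (0.02), which lay below that median with either weighting. Members with a lower heavy share without overlap numbered 2 (LPS+ET against LPS), 1 (LPS+ET+KU against LPS+ET) and 18 (LPS+ET+KU against LPS) with counts as deposited. Of all genes 1.76%, 2.31% and 13.5% were then lower, against 6.44%, 1.45% and 7.08% with scaled fractions. Without single gradients the members numbered 12 to 14, 2 to 4 and 12 to 16. Beside them stood 7.99% to 9.32%, 2.18% to 4.29% and 8.43% to 10.8% of all genes. These alternatives for the heavy share were chosen after seeing the data. Equal weights raised the share of higher calls among all genes in LPS+ET+KU against LPS from 58.6% to 74.5%, and the block lowered it in LPS+ET against LPS from 62.1% to 52.1%. The pool block also called synthetases that the main fit did not, as named in the Results. The cause of these differences was not tested. The lowest members (Pars2, Nars2, Aars2, Ears2) rest on few counts, so differences in them were hardest to detect.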

Other observations

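The counted site of Mars lies within Ddit3, an ATF4-response gene on the opposite strand. Ddit3 had 39.2, 42.7, 42.4 and 44 CPM in LPS, 23.4, 55.4, 20.9 and 23.9 CPM in LPS+ET and 78.1, 227, 67 and 61.6 CPM in LPS+ET+KU. Mars had 86.1, 101, 67 and 73 CPM, 71.6, 153, 39.4 and 54.1 CPM and 98, 157, 53.9 and 67.5 CPM in the same gradients. Both were highest in pool LUL16 within LPS+ET and within LPS+ET+KU. Other genes of the ATF4 list, such as Atf4 (897 CPM) and Shmt2 (1843 CPM), were also highest in LUL16 within LPS+ET. Some, such as Sesn2, were not. The LPS library of fraction 17, with 777 counts in all, held 1 count of Farsa and no count of any other synthetase.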
